A study of Mus musculus with 3 samples.

Results

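The genes described here encode the phagocyte NADPH oxidase and the proteins that switch it on and keep it running: Cybb, Cyba, Ncf1, Ncf4, Rac1, Rac2 and Hvcn1. They were taken by symbol, 7 of 55536 genes in the tables. The oxidase moves electrons from NADPH in the cytosol across the membrane to oxygen, which makes superoxide inside the phagosome or outside the cell. Its catalytic core is a membrane heterodimer that is idle at rest. Phosphorylated cytosolic subunits and a GTP-bound Rac join it when a phagocyte meets microbes. In macrophages the oxidase is known for killing ingested bacteria and fungi, and inherited loss of a subunit causes chronic granulomatous disease.

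Levels were read from total RNA of the cytosol of primary bone marrow-derived macrophages (C57BL/6J mice), depleted of ribosomal RNA and sequenced in 3 libraries that form 1 group. Lipid A is the TLR4-activating part of lipopolysaccharide. The labels place all 3 libraries at minute 0 of exposure to it (100 ng/ml), so no stimulated or other control group is compared. The sources used here give no genetic alteration, and age and sex are labelled as not collected. All libraries carry 1 donor label and nothing separates cultures from animals, so each SD below measures the spread between these 3 samples and may be technical.

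The gene tables held 26318761 expected counts in replicate 1, 41897257 in replicate 2 and 56290298 in replicate 3. The macrophage label was matched by its markers: 8 of 8, among them Lyz2 and Cd68, reached a TPM (a transcript level divided by length and scaled to 1 total per library) of at least 1 in every library. Of the neutrophil markers, 4 of 12 did so (S100a9 at 10.8, S100a8 at 6.29, Mmp8 at 4.71 and Ngp at 1.83 mean TPM). The whole neutrophil list summed to 25.9, 24.1 and 24.8 TPM, and the neutrophil-defining Ly6g had 0 counts in every library. Of the other markers, 0 of 4 for eosinophils, 1 of 6 for B cells (Ighm), 0 of 6 for T cells and 0 of 5 for fibroblasts reached it. Protein-coding genes took 26.2%, 22.0% and 21.7% of all TPM, so the TPM of a coding gene tends to be highest in replicate 1.

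All 7 oxidase genes were present in every library, and they spanned an 18.6-fold range of mean TPM. Cyba was the most abundant at 416 ± 65.0 (SD, n = 3), followed by Rac1 at 105 ± 18.2, Cybb at 95.7 ± 23.7, Rac2 at 57.8 ± 8.99, Ncf1 at 51.1 ± 7.01, Hvcn1 at 34.9 ± 5.13 and Ncf4 at 22.3 ± 5.90. A TPM of at least 1 in all 3 libraries was reached by 7 of 7 members, against 17.0% of all genes and 41.0% of protein-coding genes. The median member level was 57.8 TPM, beside 7.19 TPM over the 9023 protein-coding genes that reached that level. Cyba ranked 52nd among those genes and Ncf4, the lowest member, ranked 1639th. In bulk RNA of this kind, fewer cells with a transcript and less of it per cell cannot be told apart. Every member was highest in replicate 1 by TPM, as were 82.6% of the protein-coding genes at that level. When TPM was rescaled to protein-coding genes alone, 6 of 7 members were highest in replicate 1, beside 30.8% of those genes. Ncf1 was the exception and was highest in replicate 2.

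**Figure D1:**
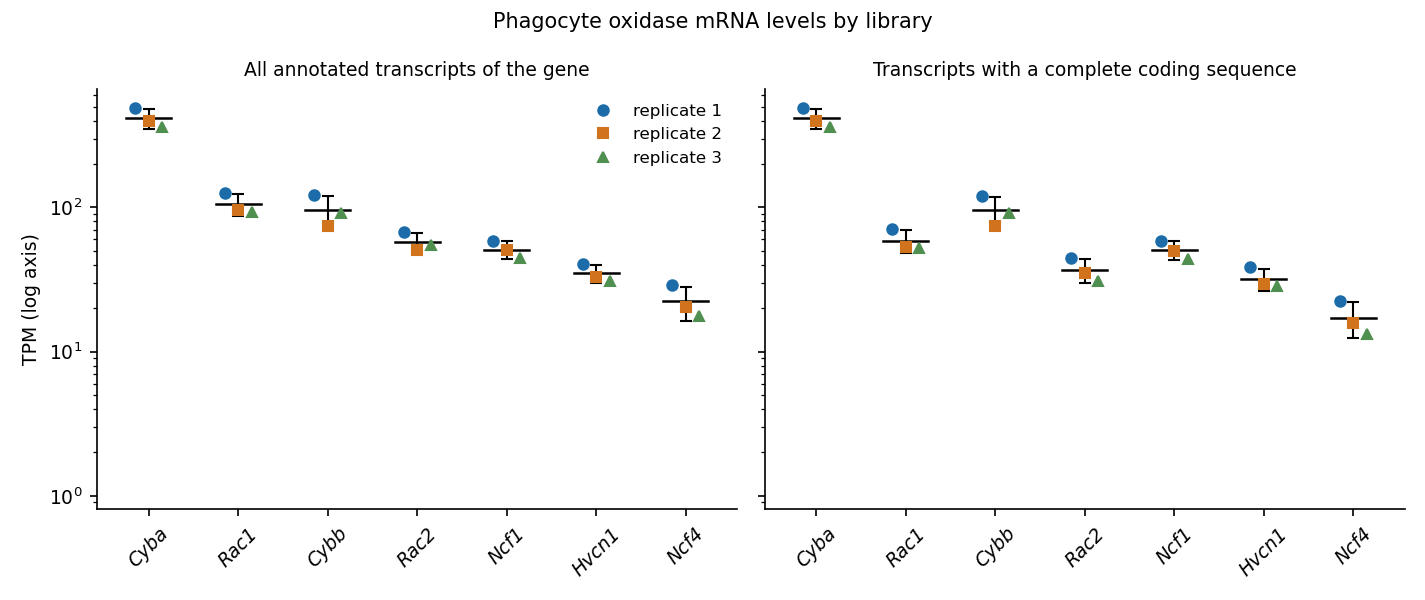
TPM on a log axis of the 7 oxidase genes in each library; points are libraries, horizontal lines are means and bars are the SD (n = 3). The left panel sums all annotated transcripts of a gene and the right panel sums only those with a complete coding sequence, where Cybb lies above Rac1 and Ncf1 lies above Rac2 in all 3 libraries.

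Cybb and Cyba encode the 2 chains of the membrane core, flavocytochrome b558. Cybb encodes NOX2, the glycosylated chain that carries the flavin, the hemes and the NADPH-binding site. Its TPM was 121, 74.3 and 91.8 in replicates 1, 2 and 3. Cyba encodes p22phox, the smaller chain that stabilises NOX2 and docks the cytosolic organiser, and its TPM was 488, 396 and 363. Replicate 2 was the lowest library for Cybb and replicate 3 the lowest for Cyba, and the values of the 2 genes did not overlap. Within a library Cyba exceeded Cybb by 4.03-fold, 5.33-fold and 3.95-fold, a log2 difference of 2.14 ± 0.24 (SD, n = 3). The 2 proteins are known to pair 1 to 1, and their transcripts were far from equal in each library.

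The order was turned around before correction for length. Cybb had 25853, 28404 and 45403 expected counts, more than any other member in every library, and Cyba had 11775, 17598 and 20991. The leading Cyba transcript, Cyba-201, is 744 bases long, and the leading Cybb transcript, Cybb-201, is 4752 bases long. Cyba lies on chromosome 8 at 122424776 to 122432930 (mm10, minus strand, 6 exons in Cyba-201). Cybb lies on chromosome X at 9435252 to 9487771 (minus strand, 13 exons in Cybb-201). Each gene was read almost wholly from 1 annotated form: Cybb-201 took 99.5% ± 0.47 of the gene's transcripts and Cyba-201 took 97.3% ± 0.32 (SD, n = 3).

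The cytosolic subunits were lower than the membrane chains. Ncf1 encodes p47phox, the organiser that is phosphorylated, unfolds and binds p22phox, and its TPM was 58.4, 50.4 and 44.5. Ncf4 encodes p40phox, which binds phosphatidylinositol 3-phosphate on phagosomes, and its TPM was 28.9, 20.3 and 17.7. The 2 genes did not overlap, and Ncf1 exceeded Ncf4 by a log2 difference of 1.22 ± 0.18 (SD, n = 3), with 3 of 3 libraries in that direction.

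Ncf1 lies on chromosome 5 at 134220053 to 134229625 (minus strand) and Ncf4 on chromosome 15 at 78244801 to 78262580 (plus strand). Ncf1-202, with 1170 coding bases, took 96.4% ± 1.75 of the Ncf1 transcripts. Ncf4 was more divided: Ncf4-201, its form with a complete coding sequence, took 76.7% ± 1.87. The retained-intron forms Ncf4-206 and Ncf4-204 took 9.96% ± 2.56 and 9.04% ± 4.06 (SD, n = 3). Those shares rest on few reads, since Ncf4-206 had 29.6, 63.9 and 71.9 expected counts and Ncf4-204 had 20.9, 12.4 and 19.1. By counts Ncf4-201 held 93.2% of the gene, because both retained-intron forms are short (540 and 336 bases) and TPM divides by length.

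Rac1 and Rac2 encode the GTPases that, when loaded with GTP, join the cytosolic subunits and complete the active enzyme. Rac1 is made in most cell types and Rac2 is known mainly from blood cells. Rac1 had a TPM of 126, 96.1 and 93.2, and Rac2 had 68.0, 50.9 and 54.5. Rac1 was above Rac2 in each library, by a log2 difference of 0.86 ± 0.08 (SD, n = 3), and the values did not overlap. Rac1 lies on chromosome 5 at 143503634 to 143528036 and Rac2 on chromosome 15 at 78559167 to 78572783, both on the minus strand.

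The 2 genes are close relatives, which bears on whether reads can be told apart between them. Their main coding sequences, of 576 bases each, were identical at 444 aligned positions, or 77.1%. The longest stretch shared between any part of Rac1-201 and Rac2-201 was 29 bases. Identity was lowest at the end, where the last 60 coding bases (codons 173 to 192) matched at 55% of positions. That end is shown because it encodes the tail that anchors each GTPase to membranes, a basic stretch followed by the motif that receives a lipid. It is read from the GENCODE M21 transcripts, with the 27 positions that differ in capitals.
Rac1-201: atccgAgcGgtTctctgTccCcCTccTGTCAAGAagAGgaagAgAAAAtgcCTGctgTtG
Rac2-201: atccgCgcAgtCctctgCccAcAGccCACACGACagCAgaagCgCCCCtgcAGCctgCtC

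Rac1 was the member most divided among its transcripts. Rac1-202 took 48.3%, 44.9% and 48.8% in replicates 1, 2 and 3. Rac1-204, a processed transcript with no coding sequence in the annotation, took 43.4%, 44.7% and 43.6%, and Rac1-201, the form of the usual 192-codon protein, took 8.29%, 10.2% and 7.65%. The 3 libraries divided the gene alike, and Rac1-202 was ahead of Rac1-204 in each of them, by less than 1 percentage point in replicate 2. By expected counts the picture differed: Rac1-202 held 66.4% ± 3.48, Rac1-201 held 22.9% ± 3.33 and Rac1-204 held 10.7% ± 0.31 (SD, n = 3). Rac1-204 is 585 bases long, Rac1-202 is 2325 and Rac1-201 is 4159, so a read counts for more TPM in Rac1-204. Of the bases of Rac1-204, 459 also lie in Rac1-202. Whether the reads assigned to Rac1-204 came from coding transcripts was not tested, so its share is not a measure of noncoding RNA.

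Rac1-202 is annotated with an exon that Rac1-201 and Rac1-204 lack. It is exon 4, of 57 bases, on chromosome 5 at 143509597 to 143509653 (mm10), and it adds 19 codons in frame, for 211 in all. This is the insertion known as Rac1b, a form with fast nucleotide exchange. The exon is shown in capitals with 30 bases of the exons on either side, beside the junction without it, which is the same in Rac1-201 and Rac1-204.
Rac1-202: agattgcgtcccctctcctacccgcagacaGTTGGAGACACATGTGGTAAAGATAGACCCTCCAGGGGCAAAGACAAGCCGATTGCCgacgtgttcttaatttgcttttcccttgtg
Rac1-201: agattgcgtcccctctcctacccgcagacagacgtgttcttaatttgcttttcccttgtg

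The share of Rac1-202 is not a measure of this exon. Those 57 bases are the only ones of Rac1-202 that are absent from both other forms, while Rac1-201 has 1891 bases of its own, which lie mostly in a longer 3′ UTR: its 3′ end is at 143503634 and that of Rac1-202 at 143505482. No annotated transcript with a complete coding sequence joins the shorter 3′ end to the junction without the exon. Reads from the shorter 3′ end and reads that hold the exon therefore raise the same entry, and the 2 cannot be told apart in tables of transcript totals.

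Rac2 was divided in another way. Rac2-201, the form with a complete coding sequence, took 66.2%, 68.8% and 56.9% of the gene's transcripts, and Rac2-203 took 33.5%, 31.0% and 42.8%. Rac2-203 is annotated with 254 bases and an incomplete coding sequence, and 243 of its bases also lie in Rac2-201. It had 51.7, 75.5 and 146 expected counts, which was 1.08% ± 0.36 (SD, n = 3) of the gene's reads. Its deposited effective length was 48.0, 56.8 and 56.9 bases, so these few reads made up 20.6 ± 4.22 of the TPM of Rac2. The bounds deposited around the Rac2 TPM, whose level is not stated, were the widest of any member, at 33.9%, 28.3% and 22.3% of the posterior mean.

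When only transcripts with a complete coding sequence were summed, a calculation chosen after the values had been seen, the order of the genes changed. Rac1 came to 58.9 ± 10.7 TPM, Rac2 to 37.0 ± 7.19, Cybb to 95.3 ± 23.7 and Ncf1 to 50.7 ± 7.34 (SD, n = 3). Cybb then stood above Rac1 by 1.70-fold, 1.40-fold and 1.73-fold, and Ncf1 above Rac2 by 1.30-fold, 1.43-fold and 1.41-fold. Rac1 stayed above Rac2 in each library, by 1.58-fold, 1.51-fold and 1.70-fold. Cyba stayed first at 415 ± 64.9 and Ncf4 last at 17.1 ± 4.79, and Hvcn1 came to 32.1 ± 5.52. The sums for Rac1 and Rac2 leave out the reads assigned to Rac1-204 and Rac2-203. Of the bases of these forms, 459 of 585 and 243 of 254 also lie in the leading coding form of the same gene. Whether those reads came from coding transcripts was not tested, so the changed order is not a measure of coding mRNA levels.

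**Figure D2:**
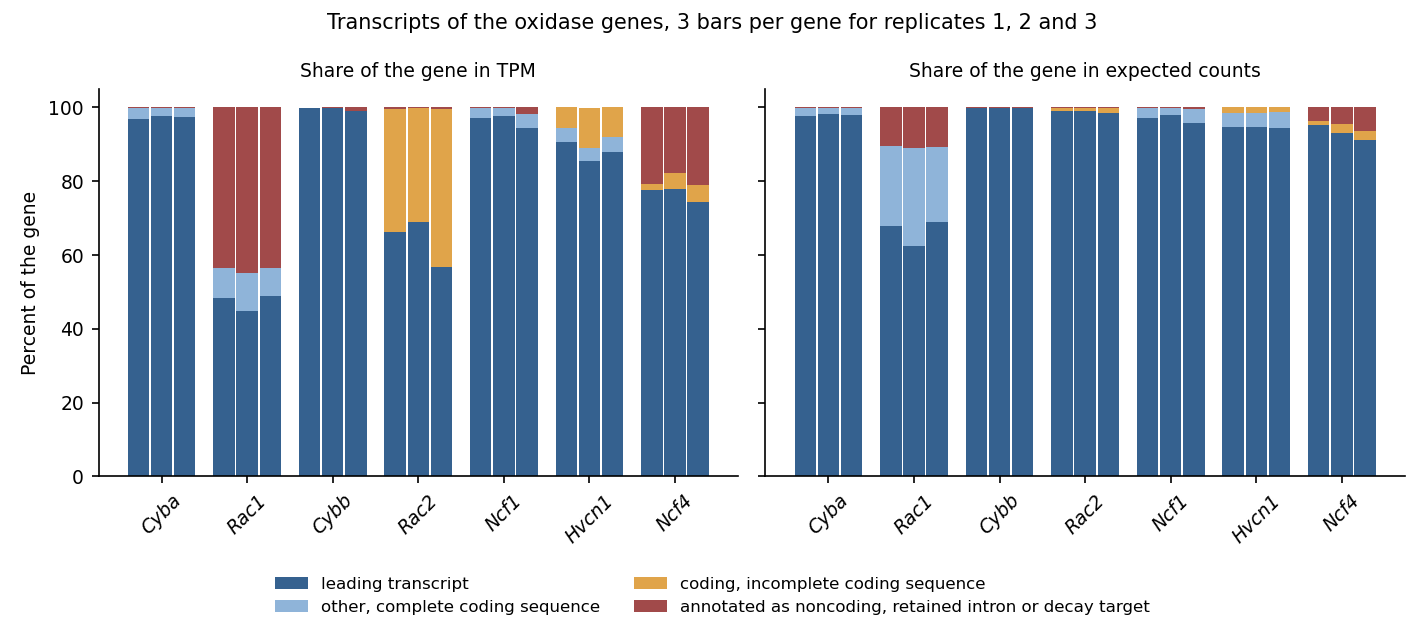
Percent of each gene taken by classes of its transcripts, with 1 bar per library, by TPM (left) and by expected counts (right). For Rac2 the orange class, which is Rac2-203, is 31.0% to 42.8% of the gene by TPM and under 2% by counts. For Rac1 the red class is about 44% by TPM and about 11% by counts.

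Hvcn1 encodes the voltage-gated proton channel that carries protons out of the cytosol while the oxidase moves electrons, so that the membrane potential does not stop the enzyme. Its TPM was 40.7, 33.0 and 31.0, highest in replicate 1. Cyba exceeded it by 12.0-fold, 12.0-fold and 11.7-fold, by this TPM the steadiest ratio of the 21 member pairs, with a log2 SD of 0.02. Which pair was steadiest depended on the estimate: with kallisto-format TPM the log2 SD of Cyba over Rac1 was 0.003. Hvcn1 lies on chromosome 5 at 122206804 to 122242297 (plus strand). Hvcn1-201 took 88.1% ± 2.64 of its transcripts and Hvcn1-205, a form of 427 bases with an incomplete coding sequence, took 5.42% ± 3.57 (SD, n = 3). Hvcn1-205 had 6.46, 52.3 and 41.8 expected counts, lowest in replicate 1.

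Among neighbours in the order of gene TPM, the larger steps were several times the spread between libraries. Cyba stood above Rac1 by a log2 difference of 1.99 ± 0.05, Cybb above Rac2 by 0.71 ± 0.15, Ncf1 above Hvcn1 by 0.55 ± 0.05 and Hvcn1 above Ncf4 by 0.67 ± 0.16 (SD, n = 3). Rac1 and Cybb did not differ beyond their spread (0.15 ± 0.19), and Rac2 and Ncf1 differed by little more than theirs (0.18 ± 0.14). With kallisto-format TPM the step from Rac2 to Ncf1 was larger, 0.64 ± 0.07, and that from Cybb to Rac2 smaller, 0.41 ± 0.20 (SD, n = 3). All 21 pairs kept 1 direction in the 3 libraries. A two-sided exact sign-flip permutation test on 3 libraries cannot go below p = 0.25, which each pair reached (0.25 after Benjamini-Hochberg adjustment over the 21 pairs), so no pair could pass a threshold of 0.05.

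The members also differed in how much they varied between libraries. On log2 CPM (counts scaled to library size, here with the TMM factors of edgeR), Cybb and Ncf4 varied most, each with an SD of 0.24 (n = 3). Cybb stood at 0.22, -0.25 and 0.03 from its mean in replicates 1, 2 and 3, and Ncf4 at 0.23, 0.01 and -0.24. So the low library was replicate 2 for Cybb and replicate 3 for Ncf4. Rac2 had an SD of 0.15, Ncf1 of 0.12, Rac1 and Hvcn1 of 0.11 each, and Cyba of 0.09. These SDs depended on single libraries. An SD of 3 values falls for any gene when its outlying value is left out, and the share over all genes was not computed. The falls given next are therefore not a trait of the members. The SD was 0.143 for Cybb without replicate 2, 0.0865 for Rac2, 0.0163 for Ncf1 and 0.0196 for Cyba without replicate 3, and 0.0600 for Rac1 and 0.0451 for Hvcn1 without replicate 1. Other omissions raised it, as to 0.333 for Cybb without replicate 3, and to 0.343 for Ncf4 and 0.224 for Rac2 without replicate 2. The median over the members was 0.116 and that over the 12413 genes that passed the filter was 0.119, a set that spans all levels. Beside genes within 0.5 log2 CPM of its own level, a member had an SD above their median in 6 of 7 cases, the exception being Cyba. For Ncf4 the SD was 0.236 beside a median of 0.0877, for Rac2 0.153 beside 0.0862 and for Cybb 0.237 beside 0.120, each also above the upper quartile. Among all 12413 genes that passed the filter, at any level, 77.9% had a smaller SD than Cybb and 77.7% a smaller one than Ncf4.

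The direction of the deviations was shared by most members. The lowest value was in replicate 3 for 6 of 7 members, beside 35.5% of all genes that passed the filter, and the highest was in replicate 1 for 6 of 7, beside 33.0%. The exceptions were Cybb, lowest in replicate 2, and Ncf1, highest in replicate 2. Scaled by library size alone, Ncf1 was also highest in replicate 1. Replicate 3 was the deepest library and replicate 1 the shallowest, and the part of depth in this order was not tested.

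**Figure D3:**
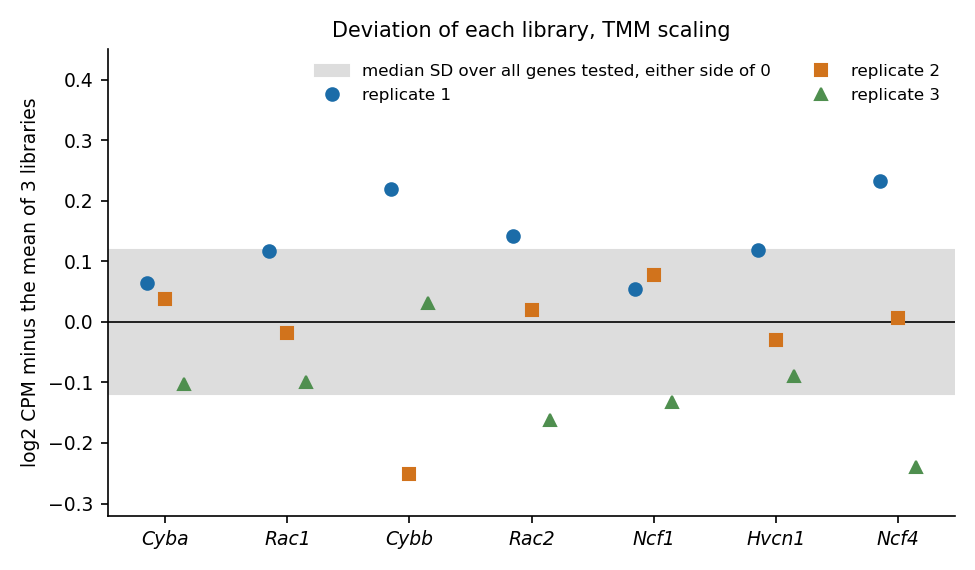
Deviation of each library from the mean log2 CPM of the gene, for the 7 members, with points as libraries; the grey band is the median SD over all genes tested, drawn on either side of 0. Cybb, Ncf4 and Rac2 reach outside the band on both sides, with Cybb lowest in replicate 2 and the other 2 in replicate 3. Cyba and Rac1 stay within it.

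Replicate 3 also differed from the other libraries in reads assigned to retained-intron forms. For Cybb they came to 4.39, 6.65 and 58.3 expected counts, for Ncf1 to 3.32, 5.26 and 40.4, and for Ncf4 to 51.6, 79.5 and 125. As a share of the gene's counts these forms were highest in replicate 3 for all 3 members that have them, as for 84.5% of the 2722 protein-coding genes compared. Over protein-coding genes they took 1.39%, 1.34% and 2.06% of counts. They stayed at or below 0.335% of counts for Cybb and Ncf1 but reached 6.29% for Ncf4 in replicate 3, the library with its lowest level. Whether this moved the Ncf4 level was not tested.

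Of the genes listed as other oxidase components, 3 of 3 reached a TPM of at least 1, with a median of 22.2. Cybc1 encodes the chaperone of the endoplasmic reticulum that NOX2 and p22phox need to mature, and stood at 15.9 ± 2.53 TPM. Rap1a and Rap1b encode small GTPases found with the flavocytochrome, and stood at 22.2 ± 3.10 and 90.6 ± 14.1 (SD, n = 3). Of the other NOX enzymes and their partners, 1 of 10 reached a TPM of 1: Rac3, a relative of Rac1 and Rac2, at 1.98 ± 0.56. Noxo1 and Nox1 followed at 0.17 ± 0.08 and 0.02 ± 0.02. Nox3, Noxa1, Duox1, Duox2 and Duoxa2 had 0 counts in all 3 libraries, which allows up to 0.114, 0.0716 and 0.0533 CPM (counts scaled to library size; 3 counts of each total, counting error only). Of the catalytic genes Cybb, Nox1, Nox3, Nox4, Duox1 and Duox2, only Cybb had more than 3 counts in every library.

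Genes that turn Rac on and off were mostly present. Rac exchange factors load Rac with GTP, and their list here also holds the partner genes Elmo1 and Elmo2. Of that list, 10 of 12 reached a TPM of 1, with a median of 7.94. Dock2, the exchange factor of blood cells, led at 35.4 ± 3.86, followed by Vav1 at 28.7 ± 3.24 and Prex1 at 22.8 ± 2.82, while Prex2 had 0, 1 and 0 counts. Of the GTPase activators and inhibitors, 7 of 9 reached it, with a median of 7.93. Arhgdia and Arhgdib, which hold Rac in the cytosol away from membranes, led at 177 ± 26.7 and 118 ± 30.3, ahead of Abr at 44.6 ± 5.68, and Arhgdig was lowest at 0.013 ± 0.012 (SD, n = 3). Arhgdia exceeded Rac1 and Rac2 in each library, whereas Arhgdib, at 150, 113 and 90.5, was below Rac1 in replicate 3.

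Of the kinases upstream of assembly, 14 of 17 reached a TPM of 1, with a median of 12.8. Syk, which acts below Fc receptors, stood at 62.1 ± 6.23, Akt1 at 50.8 ± 3.95 and Mapk3 at 42.1 ± 7.69, and the lowest, Prkcz, at 0.077 ± 0.074. Of the NADPH-supplying enzymes 5 of 6 reached it, with a median of 29.9, led by Idh1 at 60.4 ± 5.13, Pgd at 55.7 ± 6.13 and G6pdx, the entry enzyme of the pentose phosphate pathway, at 34.4 ± 5.77. Me1 was the lowest of them at 0.21 ± 0.04 (SD, n = 3).

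Of the enzymes that handle superoxide and peroxide, 8 of 10 reached a TPM of 1, and the list median was 57.6, beside 57.8 for the members. Gpx1, which reduces peroxide with glutathione, stood at 345 ± 22.9, Prdx1 at 208 ± 28.8 and Gpx4 at 114 ± 17.8, and the extracellular Sod3 was lowest at 0.0067 ± 0.0115. Of the transcription factors known at oxidase promoters 8 of 9 reached it, with a median of 18.2. Spi1, which encodes PU.1, stood at 61.5 ± 9.65, Irf8 at 51.1 ± 7.96 and Cebpa at 41.4 ± 3.15, and the granulocyte factor Cebpe was lowest at 0.087 ± 0.012 (SD, n = 3).

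**Figure D4:**
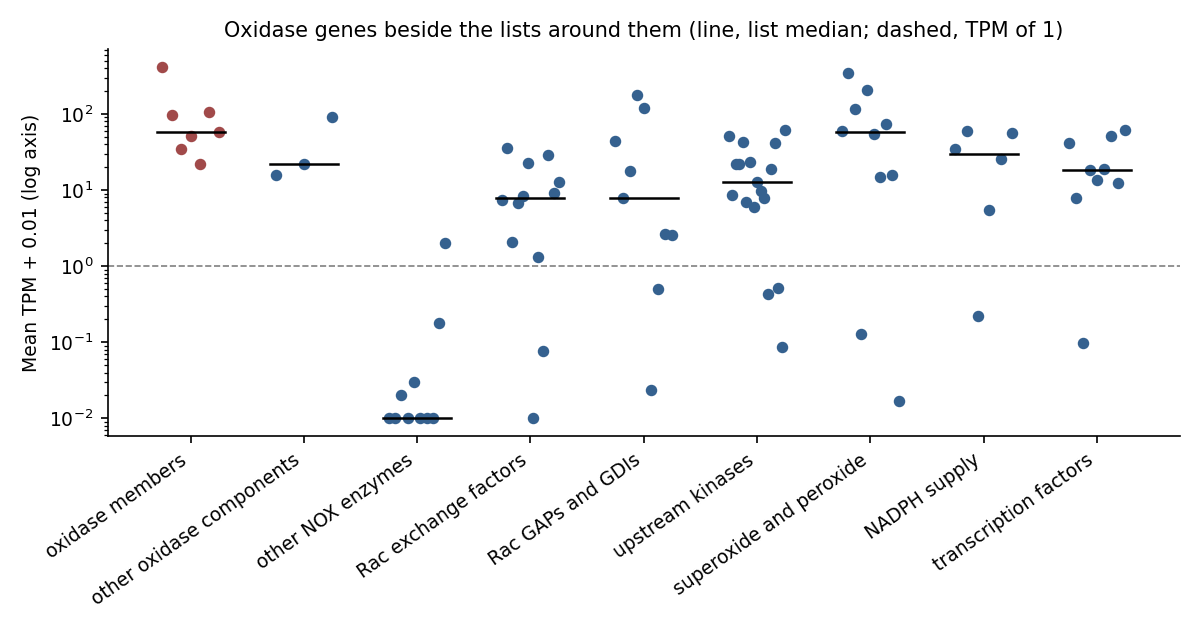
Mean TPM over 3 libraries, with 0.01 added, on a log axis, for each gene of the member list (red) and of 8 lists around it (blue); black lines are list medians and the dashed line is a TPM of 1. The other NOX enzymes lie at or near 0 except Rac3, and the superoxide and peroxide list has a median next to that of the members.

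Of the members, 4 overlap a gene on the opposite strand, and whether counting used strand is not given in the sources used here. Cyba lies within Gm20388, which was listed at 10.6 ± 1.15 TPM, and Rac1 overlaps Daglb at 14.8 ± 1.43 TPM and Gm42502 at 0.22 ± 0.22. Ncf1 overlaps Gtf2ird2 at 0.957 ± 0.119 and Hvcn1 overlaps Tctn1 at 0.860 ± 0.173 (SD, n = 3). In the kallisto-format tables Cyba had 1.27, 1.27 and 1.34 times the expected counts of the gene tables, and Cybb 1.15, 1.22 and 1.25 times. The median ratio over the 9023 protein-coding genes was 1.07, 1.09 and 1.14, so both stood above it in every library. Ncf4 did so too, at 1.13, 1.11 and 1.18. Rac1, Ncf1 and Hvcn1 stood below it in every library, and Rac2 was below it in replicate 1 only. The part of overlapping genes in these ratios was not tested.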

How the data were processed

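Each of 3 libraries came with a gene table and a transcript table in RSEM format and a transcript table in kallisto format, per the file headers. Tool versions are not given in the sources used here. Values refer to mm10 and GENCODE M21, per the labels. The authors deposited expected counts (estimated reads per gene or transcript, not always whole), TPM, a posterior mean TPM with bounds, and the percent of a gene taken by each transcript. TPM and percent were used as deposited. Expected counts were rounded for edgeR 4.0.16 (R 4.3.3; TMM, filterByExpr, log2 CPM, counts scaled to library size, with a prior count of 2), and the step was tested on simulated data. DESeq2 1.42.0 gave alternative size factors. With 1 group, no contrast was fitted. GENCODE M21 gave the transcript sequences and the gene coordinates.

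Members and lists were chosen with earlier results of these data known. Named genes are the 7 members, the other oxidase components, and the 3 highest and the lowest gene of each further list; named transcripts are the leading one and any with a mean share of at least 5%. Where several genes of a list shared the lowest value, those with 0 counts were named together. An item of the list of other oxidase components is not reported here. Alternatives were other TPM estimates, scalings, thresholds, a pseudocount of 1 and leaving out each library.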

Additional observations from a re-analysis of the deposited data

How the results depend on the processing

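The 7 members stayed detected with TPM thresholds of 5 and 10, with kallisto-format and posterior mean TPM. The median member TPM of 57.8 was 247 when rescaled over protein-coding genes, where the total is smaller by construction. With kallisto-format TPM it was 33.8. Over the 9023 protein-coding genes the median ratio of kallisto-format to main TPM was 0.417, 0.503 and 0.419 in replicates 1, 2 and 3. The lower level was thus not particular to the members, and its cause was not tested. Of the 6 neighbouring pairs, 5 kept their order in every library with kallisto-format TPM, the exception being Rac1 and Cybb, and 4 with complete coding transcripts only, an alternative chosen after seeing the data. There the log2 difference of Rac1 minus Cybb was -0.68 ± 0.17 and that of Rac2 minus Ncf1 was -0.46 ± 0.08 (SD, n = 3). The median member SD ranged from 0.096 to 0.157 without single libraries, beside 0.0853 to 0.115 over all genes, and was 0.158 with library size alone, beside 0.132 over all genes there. The leading transcript of Rac2 fell to 46.3% in kallisto-format shares, where Rac2-203 took 51.7%, and Rac1-204 took 49.2% beside 47.5% for Rac1-202. Of 140 alternative values for single members, 110 stayed within 1 SD between libraries (for SDs, within 1.5 times) and 30 moved further. Of 42 for neighbouring pairs, 33 stayed, 7 moved and 2, given above, turned. No paired analysis was possible because there is 1 group. Depth limits short transcripts most, such as Rac2-203 and Ncf4-204, which rest on few counts.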
